A study of Mus musculus with 8 samples.

Results

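The mammalian circadian clock genes were examined as a set of 10 transcripts in mouse mesenchymal cells treated with a lipid signal. The members were Clock and Arntl (the older symbol of Bmal1), Per1, Per2, Per3, Cry1, Cry2, Nr1d1, Nr1d2 and Dbp. Each was taken by its symbol from the deposited table of 18306 genes. All 10 were found and all 10 passed the filter on low counts, which left 11844 genes for testing.

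The clock of a cell is a feedback loop of transcription. The proteins CLOCK and BMAL1 bind E-box elements as a pair and activate the Per and Cry genes, whose products return to the nucleus and repress that pair. In a coupled loop, the nuclear receptors encoded by Nr1d1 and Nr1d2 (REV-ERB alpha and beta) repress Arntl through elements shared with the ROR receptors, and Dbp is an output factor that binds D-box elements. Fibroblast-like cells carry this loop, and transcripts driven by E-boxes and Arntl peak at opposite phases. Serum and other stimuli can set its phase in culture.

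The cells were C3H10T1/2, an established mouse embryo line of multipotent mesenchymal character. Both groups spent 24 h in serum-free medium. One group then received 5 µM sphingosine 1-phosphate (S1P) and the other its vehicle, fatty acid-free albumin, for a further 24 h. There were 4 vehicle libraries (replicates 1 to 4) and 4 S1P libraries (replicates 5 to 8), all from total RNA of one line. Separate cultures are not stated for the libraries of a group, and the p-values then reflect the variation among these libraries alone, part of which may be technical. There was a single collection time, so a change in the level of a cycling transcript and a change in its timing cannot be told apart. In bulk libraries such as these, fewer cells of a type and less RNA per cell cannot be told apart either.

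RefSeq promoter windows (build GRCm38.p6, 250 bases before to 50 after a start site) were at hand for 9 of the 10 members, 13 windows in all. Per2 had no entry. Windows were searched on both strands for the E-box CACGTG. A variant of it, CACGTT, was also searched; it reads AACGTG on the opposite strand. The other searches were for the D-box sequences TTATGTAA and TTATGCAA, the cAMP response element TGACGTCA and the RORE consensus, the element bound by ROR and REV-ERB receptors. No 2 matches in the member windows overlapped. Windows with a match are shown 5′ to 3′ because they hold letters of the elements described for this loop, and the capitals mark the matches. Only the 250 bases before the start site are printed, except for Arntl.
Per1, chr11:69098699-69098948, plus strand: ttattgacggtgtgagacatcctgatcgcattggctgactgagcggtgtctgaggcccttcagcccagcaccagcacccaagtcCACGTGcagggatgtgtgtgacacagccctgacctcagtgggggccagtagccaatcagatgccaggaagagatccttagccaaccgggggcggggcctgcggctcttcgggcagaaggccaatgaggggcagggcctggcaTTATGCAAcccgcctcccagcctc
Per3, chr4:151044666-151044915, minus strand: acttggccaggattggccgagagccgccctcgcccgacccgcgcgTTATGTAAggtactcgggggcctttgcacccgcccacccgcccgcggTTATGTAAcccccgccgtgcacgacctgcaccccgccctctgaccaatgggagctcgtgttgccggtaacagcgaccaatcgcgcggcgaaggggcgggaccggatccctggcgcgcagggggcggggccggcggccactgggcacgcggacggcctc
Cry1, chr10:85185055-85185304, minus strand: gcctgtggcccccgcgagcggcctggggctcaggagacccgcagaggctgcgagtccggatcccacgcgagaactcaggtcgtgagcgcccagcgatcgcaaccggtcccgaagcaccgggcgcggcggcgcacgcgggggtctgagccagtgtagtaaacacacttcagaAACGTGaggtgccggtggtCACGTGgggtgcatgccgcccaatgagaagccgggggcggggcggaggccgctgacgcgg
Cry2, chr2:92434070-92434319, minus strand: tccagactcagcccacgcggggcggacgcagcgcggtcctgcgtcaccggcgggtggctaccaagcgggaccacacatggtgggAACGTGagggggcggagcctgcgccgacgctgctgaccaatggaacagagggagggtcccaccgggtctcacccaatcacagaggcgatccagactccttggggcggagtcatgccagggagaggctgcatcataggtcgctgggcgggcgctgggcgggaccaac
Nr1d1, chr11:98775378-98775627, minus strand: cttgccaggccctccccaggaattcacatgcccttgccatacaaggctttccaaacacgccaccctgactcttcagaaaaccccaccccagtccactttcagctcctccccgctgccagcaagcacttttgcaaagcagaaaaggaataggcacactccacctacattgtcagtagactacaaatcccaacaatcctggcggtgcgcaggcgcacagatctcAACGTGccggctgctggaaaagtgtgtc
Arntl, chr7:113207528-113207557, plus strand, 30 bases around the match: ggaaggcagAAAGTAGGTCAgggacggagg

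An E-box CACGTG stood in the windows of Per1 (positions -166 to -161 from the start site) and Cry1 (-60 to -55), and in 7.15% of all 32851 windows of the same length. The variant CACGTT was found in Cry1, Cry2 and Nr1d1 and in 4.68% of all windows. Per3 held TTATGTAA at 2 places, -205 to -198 and -158 to -151, and 0.938% of all windows held it. Per1 held TTATGCAA at -24 to -17, and 0.743% of all windows held that sequence. The RORE consensus matched once, at positions 27 to 37 after the second listed start site of Arntl, and in 0.384% of all windows. No member window held TGACGTCA, which occurred in 1.79% of all windows. A match describes letters in a window and is not a measured binding site.

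The 8 libraries summed to 13750303 to 13761544 counts. Vehicle replicate 4 stood apart from the rest: mitochondrially encoded genes took 2.5% of its counts against 3.45% to 3.83% in the others, and 6.08% of tested genes were at least 2-fold higher in it than in every other library (0.338% or less for each of the others). Within the S1P group, replicate 5 was the highest or lowest library for 64.9% of tested genes, against 41.9% to 49.8% for replicates 6 to 8. All 8 markers of mesenchymal cells were tested, with summed levels of 17082 to 23350 CPM (counts per library scaled to a common total, with composition factors) in vehicle and 13928 to 18710 after S1P. Of the markers of other cell types, Epcam, Krt8 and Krt18 were not found under these symbols and Cdh1 reached 2.83 CPM. The blood markers summed to at most 1.85 CPM. The endothelial markers Pecam1, Cdh5 and Kdr stayed under 1 CPM. Tek, a receptor listed with them, brought the sum of these 4 to 36.5 to 76.9 CPM in vehicle and 17.2 to 44.0 CPM after S1P. Tek itself had a log2 fold change of -0.81 (95% interval -1.57 to -0.05, edgeR Benjamini-Hochberg adjusted p = 0.178), and its part in the clock gene results was not tested.

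After 24 h of S1P, none of the 10 clock genes passed the test over all genes (edgeR quasi-likelihood test, Benjamini-Hochberg adjusted p under 0.05). The background share was 8.5% of all tested genes, or 1007 of 11844. At an unadjusted p under 0.05, 3 members were lower, namely Per1, Cry2 and Arntl, beside 24.9% of all genes in either direction and 11.7% lower. DESeq2 called 2 members, Per1 and Cry2, both lower, against 6.01% of the genes it tested that were called lower. Limma-voom called 0 members, against 8.86% of all genes. The median log2 fold change was 0.06 over the members and -0.04 over all tested genes, and the median size regardless of sign was 0.42 and 0.25. The S1P libraries lay wholly below the vehicle libraries for 2 members, Per1 and Cry2, against 7.21% of all tested genes. For 7 members the 95% interval of the log2 fold change spanned 0.

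**Figure D1:**
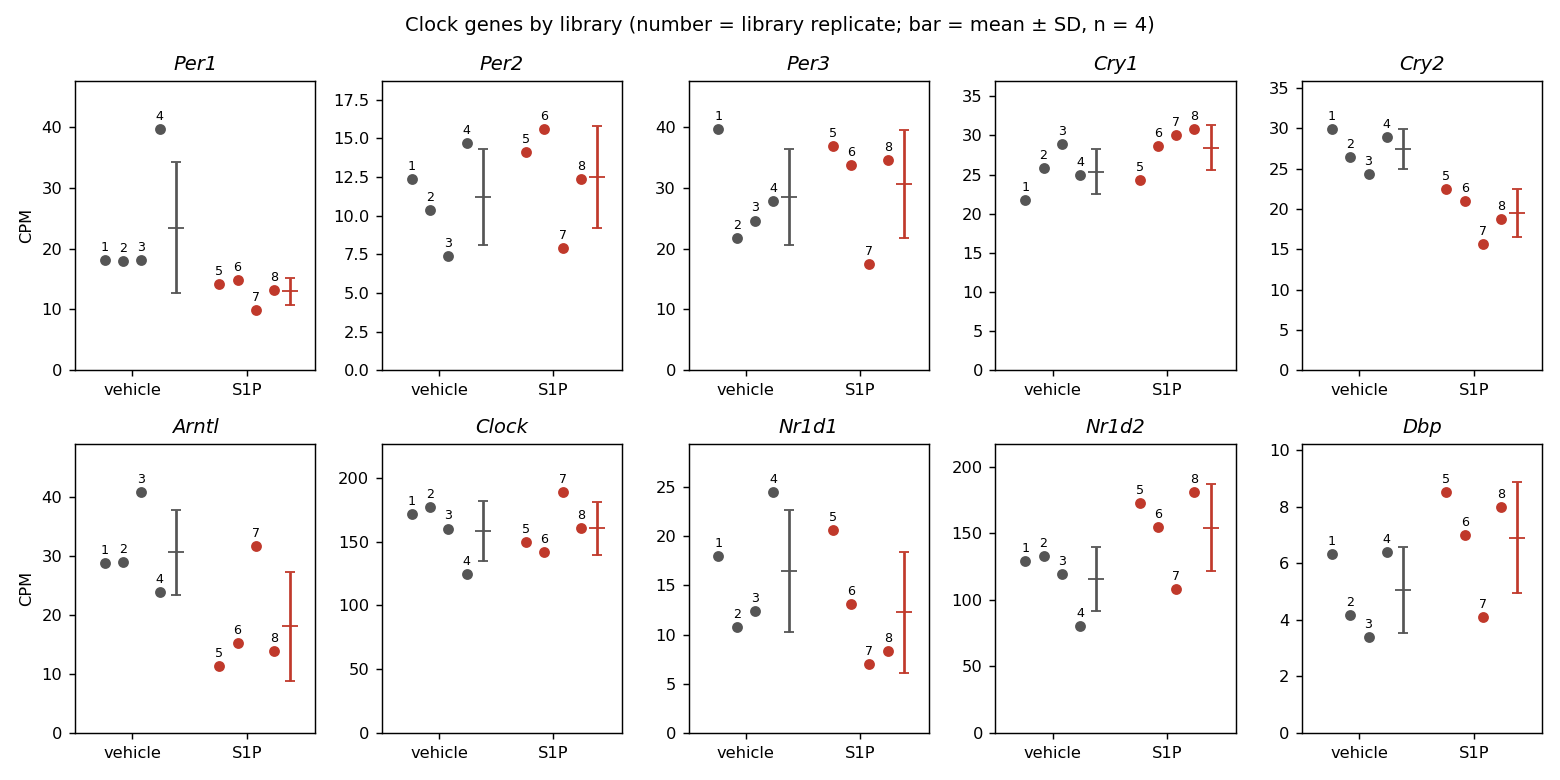
Level of each clock gene in CPM (linear axis from 0) in the 4 vehicle and 4 S1P libraries; numbers are library replicates, and the bar beside the points is the mean ± SD (n = 4). Per1 and Cry2 are lower in all S1P libraries than in any vehicle library, and S1P replicate 7 lies apart from the other S1P libraries for Arntl and Per3.

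**Figure D2:**
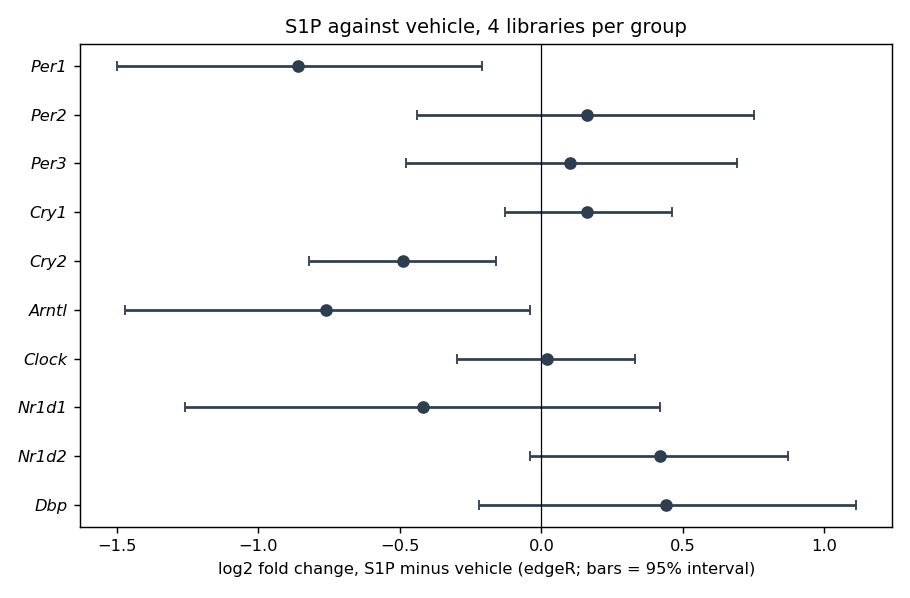
Log2 fold change (S1P minus vehicle) of the 10 members with its 95% interval from the edgeR fit, 4 libraries per group. The intervals of Per1, Cry2 and Arntl lie below 0 before adjustment over all genes, and the other 7 span 0.

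Neither activator of the loop passed the test. Clock (chromosome 5, 76639792 to 76734017 in mm9), the DNA-binding partner of BMAL1, was read at 172, 177, 160.3 and 125 CPM in vehicle replicates 1 to 4. It was read at 149.6, 142, 189 and 161 CPM in S1P replicates 5 to 8. The groups overlapped, and the difference was small, with a log2 fold change of 0.02 (95% interval -0.30 to 0.33, edgeR Benjamini-Hochberg adjusted p = 0.952). Its sign turned without vehicle replicate 4 (log2 fold change -0.08).

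Arntl, which encodes BMAL1 (chromosome 7, 120350779 to 120457836), was read at 28.7, 28.9, 40.8 and 23.8 CPM in vehicle replicates 1 to 4. In S1P replicates 5 to 8 it was read at 11.4, 15.3, 31.7 and 13.9 CPM. Of the S1P libraries, 3 lay below every vehicle library and replicate 7 lay inside the vehicle range. The group means were 30.5 ± 7.23 and 18.1 ± 9.25 CPM (SD, n = 4), a 1.69-fold lower mean level in the fit. The log2 fold change was -0.76 (SE 0.32, 95% interval -1.47 to -0.04, edgeR Benjamini-Hochberg adjusted p = 0.18). Without S1P replicate 7 it was -1.17, and Arntl then passed the test (edgeR Benjamini-Hochberg adjusted p = 0.023), where 1.26% of genes were called lower. Leaving out any other single library left it above the threshold, with an adjusted p of 0.134 to 0.369.

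None of the Per genes passed the test. Per1, a partner of the CRY proteins in repression (chromosome 11, 68908519 to 68923662), was read at 18.1, 18.0, 18.1 and 39.6 CPM in vehicle replicates 1 to 4. In S1P replicates 5 to 8 it was read at 14.1, 14.8, 9.84 and 13.1 CPM. All S1P libraries were below all vehicle libraries, and vehicle replicate 4 was far above the other vehicle libraries. The log2 fold change was -0.86 (SE 0.29, 95% interval -1.5 to -0.21, edgeR Benjamini-Hochberg adjusted p = 0.1). Without vehicle replicate 4 it was -0.48 (edgeR Benjamini-Hochberg adjusted p = 0.057). With DESeq2 it was -0.87 (adjusted p = 0.0338). Over all alternatives the adjusted p ran from 0.0338 to 0.243.

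Per2, the second of the family (chromosome 1, 93312361 to 93356107), was read at 12.4, 10.4, 7.4 and 14.7 CPM in vehicle replicates 1 to 4 and at 14.1, 15.6, 7.93 and 12.4 CPM in S1P replicates 5 to 8. The ranges were nearly the same in both groups, and the lowest libraries were vehicle replicate 3 and S1P replicate 7. The log2 fold change was 0.16 (95% interval -0.44 to 0.75, edgeR Benjamini-Hochberg adjusted p = 0.736). Per3 (chromosome 4, 150377561 to 150418974), the third member, was read at 39.6, 21.7, 24.6 and 27.8 CPM in vehicle replicates 1 to 4. In S1P replicates 5, 6 and 8 it was read at 36.8, 33.7 and 34.5 CPM, and in replicate 7 at 17.4 CPM, the lowest of all 8 libraries. Its log2 fold change was 0.10 (95% interval -0.48 to 0.69, adjusted p = 0.826 in edgeR). Without vehicle replicate 2 the sign turned, at -0.0036.

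The cryptochromes, which carry most of the repression of CLOCK and BMAL1, had opposite signs. Cry2 (chromosome 2, 92243603 to 92274400) was read at 29.9, 26.4, 24.4 and 28.9 CPM in vehicle replicates 1 to 4 and at 22.5, 21.0, 15.6 and 18.8 CPM in S1P replicates 5 to 8. Every S1P library was below every vehicle library. The means were 27.4 ± 2.48 and 19.5 ± 3.02 CPM (SD, n = 4), with a log2 fold change of -0.49 (SE 0.15, 95% interval -0.82 to -0.16). The adjusted p was 0.0706 in edgeR, 0.019 in DESeq2 and 0.0328 in edgeR without vehicle replicate 4 and S1P replicate 5 together, a fit that called 7.87% of genes lower. It ranged up to 0.187 over the alternatives.

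Cry1 (chromosome 10, 84594247 to 84647999) was read at 21.8, 25.8, 28.9 and 25.0 CPM in vehicle replicates 1 to 4 and at 24.3, 28.6, 30.0 and 30.8 CPM in S1P replicates 5 to 8. The groups overlapped, and the log2 fold change was 0.16 (95% interval -0.13 to 0.46, edgeR Benjamini-Hochberg adjusted p = 0.466). The interval allows at most a 1.38-fold higher level. The ratio of Cry1 to Cry2 in CPM was 0.729 to 1.18 in the vehicle libraries and 1.08 to 1.93 in the S1P libraries. The ratio therefore overlapped between S1P replicate 5 and vehicle replicate 3.

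The REV-ERB genes also had opposite signs, and neither passed the test. Nr1d2 (chromosome 14, 19036368 to 19071841) was read at 129, 133, 119 and 80.6 CPM in vehicle replicates 1 to 4 and at 173, 155, 108 and 181 CPM in S1P replicates 5 to 8. Of the S1P libraries, 3 exceeded every vehicle library and replicate 7 did not. The log2 fold change was 0.42 (SE 0.20, 95% interval -0.04 to 0.87, edgeR Benjamini-Hochberg adjusted p = 0.235). Without S1P replicate 7 it was 0.56 (adjusted p = 0.136 in edgeR).

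Nr1d1 (chromosome 11, 98629046 to 98636847) was read at 18.0, 10.8, 12.4 and 24.5 CPM in vehicle replicates 1 to 4 and at 20.6, 13.1, 7.05 and 8.33 CPM in S1P replicates 5 to 8. The groups overlapped widely, and the S1P libraries spanned a 2.93-fold range. The log2 fold change was -0.42 (SE 0.37, 95% interval -1.26 to 0.42, edgeR Benjamini-Hochberg adjusted p = 0.51). Leaving out vehicle replicate 4 gave -0.16 and leaving out S1P replicate 5 gave -0.79, and neither fit called Nr1d1.

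The span of Nr1d1 shares 1475 bases, 18.9% of its length, with Thra, the thyroid hormone receptor alpha gene, which had a mean of 1739 counts per library against 198 for Nr1d1. How reads in the shared stretch were assigned is not given in the sources used here, so the values of Nr1d1 are uncertain to that extent. Thra fell from 175 ± 54.1 to 77.6 ± 16.6 CPM (SD, n = 4; log2 fold change -1.17, edgeR Benjamini-Hochberg adjusted p = 0.0151). Fits that left out S1P replicate 6, 7 or 8 did not call it (adjusted p of up to 0.0627 in edgeR).

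Dbp, a PAR bZIP factor and the output gene of the set (chromosome 7, 52960258 to 52965725), was the member with the fewest counts. It was read at 6.32, 4.16, 3.4 and 6.39 CPM (89, 56, 46 and 88 counts) in vehicle replicates 1 to 4. In S1P replicates 5 to 8 it was read at 8.52, 6.98, 4.11 and 7.97 CPM (118, 96, 56 and 111 counts). Again S1P replicates 5, 6 and 8 exceeded every vehicle library and S1P replicate 7 did not. The log2 fold change was 0.44 (SE 0.30, 95% interval -0.22 to 1.11, edgeR Benjamini-Hochberg adjusted p = 0.382), so an increase of up to 2.16-fold lies within its interval.

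Dbp shares 1089 bases, 19.9% of its span, with Sphk2, which encodes a kinase that makes S1P from sphingosine. Sphk2 was read at 5.4 to 6.31 CPM in vehicle replicates 1 to 3, at 19.6 CPM in vehicle replicate 4 and at 5.43 to 8.09 CPM after S1P. Its log2 fold change was -0.42 (edgeR Benjamini-Hochberg adjusted p = 0.568) and turned to 0.26 without vehicle replicate 4. Among the vehicle libraries, Dbp was highest in replicate 4 (6.39 CPM), close to replicate 1 (6.32 CPM). Vehicle replicates 2 and 3 were at 4.16 and 3.4 CPM. How reads in this shared stretch were assigned is not given either, so the values of Dbp are uncertain to that extent.

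The clock genes spread more than most genes among the S1P libraries. The median SD of log2 CPM within the S1P group was 0.385 over the members and 0.164 over all tested genes, and 9 of the 10 members lay above that all-gene median. Nr1d1 stood at the 95.3rd percentile of tested genes for this spread, Arntl at the 94.5th, Per3 at the 91.2nd and Dbp at the 90.2nd, whereas Cry1 stood at the 46.7th. Among the vehicle libraries the medians were closer, 0.353 for the members and 0.316 for all tested genes, with 7 of 10 members above. These percentiles describe 4 libraries a group, and the members are not independent of each other.

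S1P replicate 7 was the highest or the lowest S1P library for 9 of the 10 members, against 49.8% of all tested genes. It had the highest Arntl and Clock and the lowest Per1, Per2, Per3, Cry2, Nr1d1, Nr1d2 and Dbp. Cry1 was the exception. Vehicle replicate 3 held the highest Arntl and Cry1 of the vehicle libraries together with the lowest Per2, Cry2 and Dbp. It was thus an extreme for 5 of the 10 members, against 46.1% of all tested genes. Vehicle replicate 4 was an extreme for 7 members, against 77.7% of all tested genes. It had the lowest Arntl, Clock and Nr1d2 and the highest Per1, Per2, Nr1d1 and Dbp. The mitochondrial share of S1P replicate 7 (3.8%) lay within the range of the other libraries, and its total of 13761544 counts was the highest of 8 nearly equal totals. No tested gene was at least 2-fold higher in it than in all other libraries, and 0.11% were at least 2-fold lower.

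**Figure D3:**
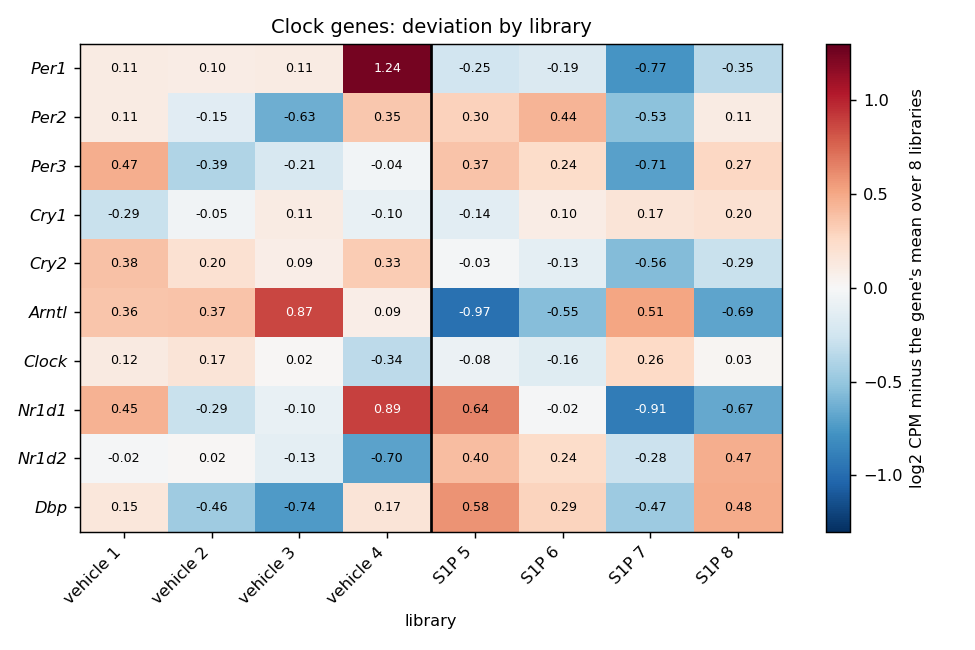
Log2 CPM of each clock gene (rows) in each library (columns) minus that gene's mean over the 8 libraries; red is above and blue below the mean, and the black line divides vehicle from S1P. S1P replicate 7 has Arntl above its mean (0.51) with Per3 (-0.71) and Nr1d1 (-0.91) below, and vehicle replicate 4 has Per1 at 1.24.

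Ratios within a library do not depend on its scaling and show the same libraries. Nr1d2 stood at 4.5, 4.6, 2.93 and 3.39 times the Arntl CPM in vehicle replicates 1 to 4. After S1P the ratio was 15.1 in replicate 5, 10.2 in replicate 6, 3.39 in replicate 7 and 13.1 in replicate 8. Thus S1P replicates 5, 6 and 8 were more than 2-fold above every vehicle library, and replicate 7 lay within the vehicle range. Dbp to Arntl ran from 0.0835 to 0.269 in vehicle. It was 0.747, 0.457 and 0.575 in S1P replicates 5, 6 and 8, and 0.13 in replicate 7. Per3 to Arntl ran from 0.604 to 1.38 in vehicle and was 3.23, 2.2 and 2.49 in the same S1P replicates and 0.549 in replicate 7. Nr1d1 to Arntl overlapped more, with 0.303 to 1.03 in vehicle and 0.222 to 1.81 after S1P. These ratios were chosen with the members' values in view and are given without a test. All share Arntl as denominator, so they are not independent and in part restate the Arntl values. In CPM alone, S1P replicates 5, 6 and 8 exceeded every vehicle library for Nr1d2 and Dbp. For Per3 they did not, at 36.8, 33.7 and 34.5 CPM against 39.6 CPM in vehicle replicate 1.

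**Figure D4:**
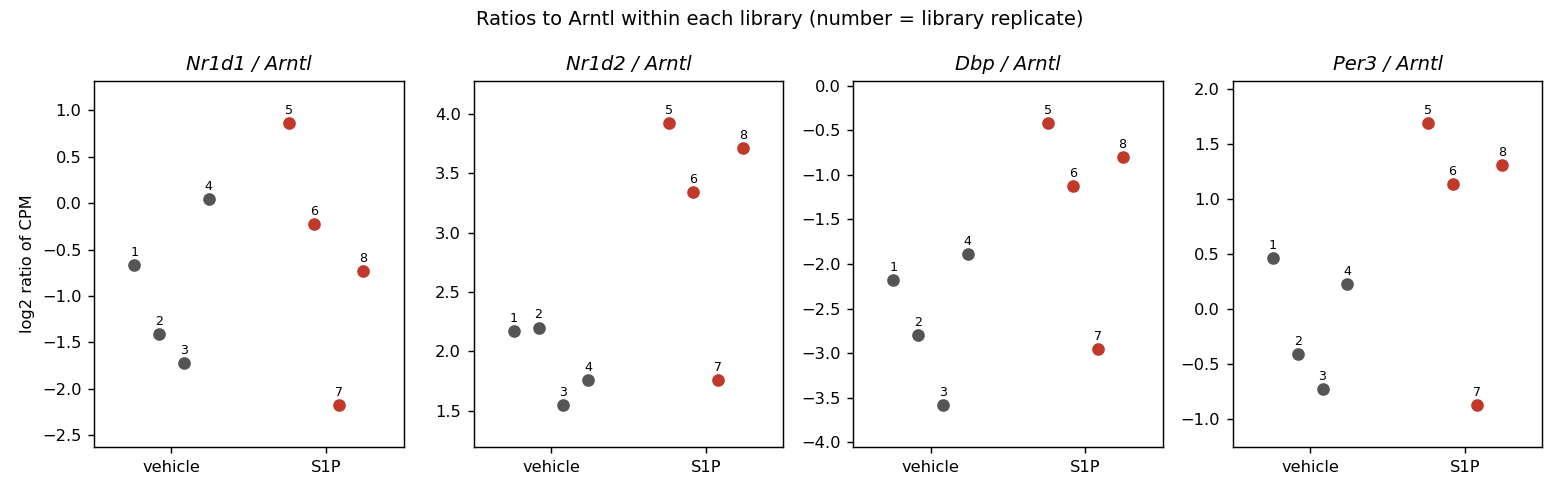
Log2 ratio of Nr1d1, Nr1d2, Dbp and Per3 to Arntl, in CPM, in each library (points, numbered by replicate) of the vehicle and S1P groups. For Nr1d2, Dbp and Per3, S1P replicates 5, 6 and 8 lie above all vehicle libraries and replicate 7 lies among or below them.

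Levels between members were compared per kilobase of exon (GENCODE M21 exon union). In vehicle, Nr1d2 was highest at 21.3 ± 4.42 CPM per kilobase, followed by Clock at 11.5 ± 1.73 and Cry1 at 7.6 ± 0.877 (SD, n = 4), and the vehicle ranges of these 3 genes did not overlap. Nr1d1 (5.34 ± 2.02), Cry2 (4.34 ± 0.392), Per1 (4.17 ± 1.91) and Arntl (4.06 ± 0.961) followed with overlapping ranges, so their order is not resolved. The ranges of Nr1d1 and Per1 also overlapped that of Cry1. Per3 stood at 2.96 ± 0.814, Per2 at 1.92 ± 0.528 and Dbp at 1.69 ± 0.508 CPM per kilobase. Per3 overlapped Nr1d1, Cry2, Per1 and Arntl above it and Per2 below it, and Per2 and Dbp overlapped, so these places are not resolved either. The highest and lowest means were 12.6-fold apart. After S1P, Nr1d2 (28.5 ± 6.09), Clock (11.7 ± 1.5) and Cry1 (8.51 ± 0.877) were again the highest members.

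Of the further transcription factors of the clock, 7 were tested, and edgeR called none of them at the all-gene level, with 1 of 7 higher at an unadjusted p under 0.05, where 13.2% of all tested genes were higher. Npas2, Rorb and Hlf had too few counts to be tested. Npas2, which can stand in for CLOCK, had at most 6 counts in a library. Bhlhe41, a repressor at E-boxes, was at 12.3 ± 4.53 CPM in vehicle and 20.0 ± 3.40 after S1P (SD, n = 4; log2 fold change 0.71, edgeR Benjamini-Hochberg adjusted p = 0.132). Without vehicle replicate 3 it passed, at 0.96 (adjusted p = 0.0435), in a fit that called 4.88% of genes higher. Its relative Bhlhe40 had a log2 fold change of 0.22 (adjusted p = 0.646 in edgeR).

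Rora, the ROR receptor that activates Arntl, was at 114 ± 30.9 CPM in vehicle and 82.2 ± 16.5 after S1P (SD, n = 4; log2 fold change -0.47, edgeR Benjamini-Hochberg adjusted p = 0.223). It passed the test without vehicle replicate 4, at -0.64 (edgeR Benjamini-Hochberg adjusted p = 0.0265), in a fit that called 6.05% of genes lower. Rora in S1P replicate 7 was 105 CPM, above the other S1P libraries at 66.2 to 82.3 CPM. Tef, a PAR bZIP relative of Dbp, was at 158 ± 29.2 CPM in vehicle and 156 ± 33.2 after S1P (SD, n = 4), with a log2 fold change of -0.01 (edgeR adjusted p = 0.979). It was lowest in S1P replicate 7 among the S1P libraries, at 108 CPM. Nfil3, a repressor at D-boxes, had a log2 fold change of -0.12, Arntl2 (a BMAL1 paralogue) 0.03 and Ciart, a repressor of the CLOCK and BMAL1 pair, 0.42, and none of the 3 was called. Among the S1P libraries, replicate 7 was also the highest for Bhlhe40 (110.5 CPM), Bhlhe41 (25.0 CPM), Nfil3 (52.1 CPM) and Ciart (3.23 CPM). It was the highest S1P library for 24.2% of all tested genes. For Arntl2 (9.25 CPM) it was neither the highest nor the lowest.

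All 13 kinases, ubiquitin ligases and partners of clock proteins were tested and none passed edgeR's test, nor did any have an unadjusted p under 0.05. Their log2 fold changes lay between -0.14 and 0.37, with a median of 0.01. Those with the highest CPM were Csnk1a1, a casein kinase, with a log2 fold change of 0.08 (95% interval -0.32 to 0.48), and Nono, an RNA-binding partner of the PER proteins, with 0.22 (95% interval -0.02 to 0.46).

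Of 11 tested genes of the CREB and glucocorticoid receptor inputs to the Per genes, 1 rose, none fell and 10 did not pass. Over all 11844 tested genes, 663 were called higher and 344 lower. The riser in this list was Fkbp5, a co-chaperone of the glucocorticoid receptor and a known target of it, named after its value was seen. It was read at 7.74, 12.9, 13.8 and 13.0 CPM in vehicle replicates 1 to 4 and at 20.9, 30.7, 28.1 and 22.6 CPM in S1P replicates 5 to 8, and the groups did not overlap. It rose 2.15-fold (log2 fold change 1.11, SE 0.21; adjusted p = 0.0131 in edgeR). Without S1P replicate 6 the call was lost (adjusted p = 0.0547). Nr3c1, the glucocorticoid receptor itself, had a log2 fold change of -0.23 and Creb1 0.27, and the list median was -0.23. Tsc22d3, Klf9 and Zbtb16 are further targets of the receptor in this list, named after their values were seen. Tsc22d3 had a log2 fold change of -0.22 and Klf9 0.26, and neither was called (edgeR Benjamini-Hochberg adjusted p = 0.495 and 0.458). Zbtb16 had too few counts to be tested.

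At an unadjusted p under 0.05, 3 of the 11 tested members of that list were lower, where 11.7% of all tested genes were, and all 3 are named here after their values were seen. Crtc1, a CREB coactivator, was at 13.1, 14.0, 11.7 and 15.4 CPM in S1P replicates 5 to 8 and at 21.2, 18.4, 16.8 and 37.2 CPM in vehicle replicates 1 to 4. Sik1, a kinase that restrains those coactivators, was at 30.6 to 36.9 CPM after S1P and at 43.5, 41.8, 33.9 and 86.8 CPM in vehicle replicates 1 to 4. Nr4a1, an immediate early nuclear receptor, had a log2 fold change of -1.03. Their edgeR Benjamini-Hochberg adjusted p values were 0.0883, 0.174 and 0.134. The 3 genes were picked for being lower after S1P, which favours genes with a high vehicle library. Vehicle replicate 4 was the highest vehicle library for all 3 of them, as it was for Per1 and for 38.1% of all tested genes. Without it the log2 fold change was -0.47 for Crtc1, which then passed (adjusted p = 0.0447 in edgeR), -0.28 for Sik1 and -0.80 for Nr4a1, which did not. DESeq2 also called Crtc1, at -0.81 (adjusted p = 0.0288).

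Of 8 tested genes described as clock outputs, 1 rose, none fell and 7 did not pass, with a median log2 fold change of 0.04. Over all 11844 tested genes, 663 were called higher and 344 lower. At an unadjusted p under 0.05 in edgeR, 3 of the 8 were higher, where 13.2% of all tested genes were. The 1 output called after adjustment was Wee1, a kinase that holds back entry into mitosis, named after its value was seen. It was read at 8.81, 13.9, 11.5 and 12.9 CPM in vehicle replicates 1 to 4 and at 21.8, 31.8, 21.7 and 30.6 CPM in S1P replicates 5 to 8. Every S1P library was above every vehicle library, and Wee1 rose 2.25-fold (log2 fold change 1.17, SE 0.20; adjusted p = 0.0079 in edgeR). Leaving out any single library left it called. In S1P replicate 7, Wee1 lay with the other S1P libraries, unlike Arntl. Ccnd1, a G1 cyclin, had a log2 fold change of -0.40 and Cdkn1a, a cyclin-dependent kinase inhibitor, 0.10 (edgeR Benjamini-Hochberg adjusted p = 0.439 and 0.883).

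**Figure D5:**
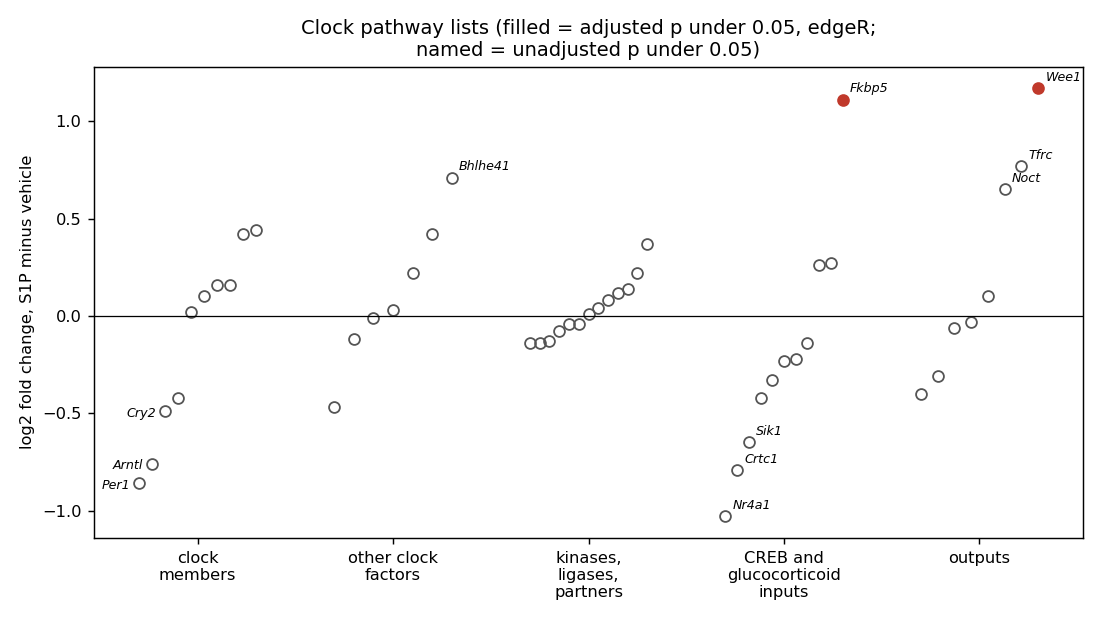
Log2 fold change (S1P minus vehicle) of every tested gene of the clock set and of the 4 further lists, sorted within each list; filled points passed an adjusted p under 0.05 in edgeR and named points have an unadjusted p under 0.05. Only Fkbp5 and Wee1 are filled, and no clock member is.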

How the data were processed

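The submitters' processing notes name STAR 2.5.3a and the build mm9. The deposited counts are labelled as sense, but which tool, annotation and strand setting produced them is not given in the sources used here. Whole-number read counts per Ensembl gene were deposited by the authors for 18306 genes in 4 vehicle and 4 S1P libraries. Column totals were nearly equal (13750303 to 13761544), so the counts may already have been brought to a common size before deposit. The depth before any such step is unknown. Columns were matched to samples by title. Pairs of replicates differed by more than sampling noise (mean chi-square per gene of at least 10.3). Pairs with vehicle replicate 4 gave 96.6 to 120.5, and the other vehicle pairs 18.9 to 48.7. Pairs with S1P replicate 5 gave 32.0 to 32.3, and the other S1P pairs 10.3 to 16.3. At these totals, a count of 0 allows a level of up to 3 counts, or 0.213 to 0.223 CPM, for counting error alone.

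The filterByExpr function of edgeR 4.0.16 (R 4.3.3), at a minimum count of 10, kept 11844 genes. S1P was tested against vehicle over the whole table with TMM factors and edgeR's robust quasi-likelihood test, and p-values were Benjamini-Hochberg adjusted with a threshold of 0.05. The SE came from the F statistic and the 95% interval from the t distribution of the fit. On simulated counts for 11844 genes in this comparison, 10% of 1.5-fold, 50% of 2-fold, 96% of 4-fold and 94% of 8-fold changes were recovered, and 6.72% of calls were false. Alternatives were RLE factors, no composition factor, no filter, a stricter filter (1 CPM in 4 libraries), no robust option, DESeq2 1.42.0, limma-voom (limma 3.58.1), and leaving out libraries. The members, the 4 further lists and the alternatives were chosen with earlier results of these data known. The text names all members, every gene overlapping one, every tested clock transcription factor, and, of each other list, the called genes with the largest change or the 2 with the highest mean CPM. Others are marked as named after their values were seen.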

Additional observations from a re-analysis of the deposited data

Results flagged for a closer look

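Among 30 of the genes named here, 8 of 60 groups of 4 libraries held a library whose gap to the nearest other exceeded Dixon's 95% limit. For independent groups chance gives about 1 in 20, but these groups read the same 8 libraries and are not independent. Some of the genes were named for their values, and the share over all tested genes was not computed. Vehicle replicate 4 and S1P replicate 5 were the highest or lowest of their group for 77.7% and 64.9% of all tested genes. Vehicle replicate 4 was apart for Per1 at 39.6 CPM (others 18.0 to 18.1), for Sphk2 at 19.6 CPM (others 5.4 to 6.31) and for Csnk1a1 at 304 CPM (others 503 to 538). S1P replicate 7 was low for Per3 at 17.4 CPM (others 33.7 to 36.8). S1P replicate 5 was high for Thra at 103 CPM (others 68.8 to 69.7), for Ccnd1 at 502 CPM (others 200.4 to 245) and for Cdkn1a at 336 CPM (others 120 to 149.7). Vehicle replicate 1 was low for Fkbp5 at 7.74 CPM (others 12.9 to 13.8).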

How the results depend on the processing

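No paired analysis was possible because the replicate numbers of the vehicle group (1 to 4) do not recur in the S1P group (5 to 8). Over 16 alternatives, 150 of 160 values of the 10 members kept their direction and their side of the threshold, 4 passed it and 6 changed sign. Lower members numbered 0 in the fit reported, 2 with DESeq2 (Per1 and Cry2), 1 without vehicle replicate 4 and S1P replicate 5 together (Cry2) and 0 to 1 when 1 library was left out (Arntl, without S1P replicate 7). Higher members numbered 0 throughout. Members that changed sign were Per3 (-0.0064 without those 2 libraries, -0.0036 to 0.30 with 1 library left out) and Clock (-0.006 with RLE factors, -0.05 without those 2 libraries, -0.08 to 0.08 with 1 left out).

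Over all genes, 663 were higher and 344 lower. With 1 library left out there were 333 to 1133 higher and 101 to 723 lower, without those 2 libraries 1178 and 934, and with DESeq2 797 lower and 941 higher. In the 4 further lists, 2 higher and 0 lower genes became 1 to 4 and 0 to 2 with 1 library left out, 4 and 3 without those 2 libraries, and 1 lower with DESeq2. Other signs that changed were Sphk2 (0.18 without those 2 libraries, -0.63 to 0.26 with 1 left out), Csnk1a1 (-0.09, and -0.08 to 0.15), Cdkn1a (-0.48, and -0.38 to 0.38), Tef (0.0016 without a filter, -0.11 to 0.13 with 1 left out), Arntl2 (-0.03 to 0.16) and Nfil3 (-0.27 to 0.01). Without those 2 libraries Nono (0.32), Nr3c1 (-0.56), Rora (-0.64) and Ccnd1 (-0.76) passed the threshold. The cause of these changes was not tested. In simulated data 10% of 1.5-fold and 50% of 2-fold changes were recovered, and the largest fitted change of a member was 1.81-fold (Per1). Differences of the members' size could therefore be missed. The simulated data held no library that stood apart, so these shares do not give the detection rate for the members here.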

Other observations

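Per1 and Per2 levels within a library, a comparison chosen after the values were seen and given without a test, separated the groups. Per1 stood at 1.46, 1.74, 2.45 and 2.7 times the Per2 CPM in vehicle replicates 1 to 4. After S1P the ratio was 0.995, 0.949, 1.24 and 1.06 in replicates 5 to 8, so the ranges did not overlap, and S1P replicate 7 lay below every vehicle library here. Per1 alone also separated the groups, at 18.0 to 39.6 CPM in vehicle and 9.84 to 14.8 CPM after S1P. The ratio of Per1 to Cry1 did so too, at 0.627 to 1.58 and 0.328 to 0.58. The Per1 to Per2 ratio thus partly restates the Per1 values. How many other gene pairs separate the groups was not counted. Arntl to Clock ran from 0.163 to 0.254 in vehicle and was 0.0763, 0.108 and 0.086 in S1P replicates 5, 6 and 8 and 0.168 in replicate 7.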
